A study of Homo sapiens with 6 samples.

Results

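The genes described here were 35 regulators of pre-mRNA splicing, read on exon arrays of human hepatocellular carcinoma cells treated with amiloride. They comprised 16 heterogeneous nuclear ribonucleoproteins (hnRNPs) and 19 other regulators, namely the polypyrimidine tract-binding proteins, KHDRBS1 (SAM68), 4 RBM proteins, RBFOX2, the muscleblind proteins, CELF1, QKI, the ESRP proteins, TIA1, TIAL1, ELAVL1 and the SR proteins SRSF9 and SRSF10. Members were chosen by name from among 19488 genes with a probe set on the array, and a member was read only by probe sets whose annotation gave that gene alone, older symbols included. Huh-7 is an established hepatocellular carcinoma line. Amiloride, a potassium-sparing diuretic and inhibitor of sodium transport across membranes, was given to the treated cultures at 0.5 mM for 24 hours, and the control cultures were untreated. The drug stock was made in DMSO, and the labels do not say whether the controls received it. RNA of 3 amiloride and 3 control cultures was put on 1 Human Exon 1.0 ST array per culture, each labelled a biological replicate of its group.

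A pre-mRNA carries short sequences, in its exons and in the introns beside them, that are bound by regulators of splicing. SR proteins bound in exons mostly favour inclusion, while hnRNPs often favour skipping, and for many of the other regulators the outcome depends on whether the protein sits upstream or downstream of the exon. Members of a family commonly bind each other's transcripts and their own, and many of them carry exons whose inclusion sends the transcript to nonsense-mediated decay.

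The deposited intensities of the 6 arrays were not on one scale, with medians of 12, 4.71 and 6.26 on amiloride replicates 1, 2 and 3 and of 13.1, 5.08 and 6.42 on control replicates 1, 2 and 3, so log2 values were quantile normalized. A gene's level was then the median of the log2 values of its probe sets, dim ones left out, and log2 fold changes between amiloride and control levels are given ± SE from limma. Control replicate 1 stood apart from the rest, with correlations across genes of 0.652 to 0.731 with the other arrays, against 0.859 to 0.95 among those 5. The labelled cell type was checked with marker genes. The 7 tested hepatoma and liver markers of 9, AFP and ALB among them, had a median level 4.20 to 4.53 log2 units above the median gene on the amiloride arrays and 3.94 to 4.94 above it on the control arrays. For the 4 epithelial markers the same value was 2.30 to 2.84 with amiloride and 2.31 to 3.10 in controls. For 8 tested markers of other cell types it was -0.46 to -0.34 with amiloride and -0.28 to 0.34 in controls. Of these 8, VIM was the brightest, with mean levels of 6.14 with amiloride and 6.10 in controls. COL1A2 read 6.04 and 5.68 on replicate 1 of amiloride and control, against 4.05 to 4.44 on the other arrays. Across 17026 genes tested, limma called 2 at an adjusted p under 0.05, CYP1A1 and ARRDC4, both higher with amiloride. Same-numbered arrays of the groups deviated together to a small degree, and with the replicate number as a block 4 genes were called. Over all genes the median log2 fold change was 0.12, and it was 0.47 among the 4257 genes of the brightest quartile by mean level, against 0.01 in the dimmest.

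The members' promoter windows are given first for HNRNPH1, PTBP2 and HNRNPK, the 3 members with the smallest unadjusted p, as context for their levels. Each window runs 5′ to 3′ on the gene's own strand over 300 bases around a RefSeq start site in GRCh38.p14, and where a gene had several the one with the most CpG dinucleotides is shown (4 windows for HNRNPH1, 1 for PTBP2 and 2 for HNRNPK). Capitals mark GGGCGG, the GC box, and CCAAT, the CCAAT box, on either strand.
HNRNPH1, chr5:179623352-179623651, minus strand: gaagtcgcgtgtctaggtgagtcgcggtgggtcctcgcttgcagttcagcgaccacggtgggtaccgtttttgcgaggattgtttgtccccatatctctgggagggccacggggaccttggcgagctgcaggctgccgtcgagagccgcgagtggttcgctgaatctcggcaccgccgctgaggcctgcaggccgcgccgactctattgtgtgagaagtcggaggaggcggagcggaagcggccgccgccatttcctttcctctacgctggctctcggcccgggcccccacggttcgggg
PTBP2, chr1:96722388-96722687, plus strand: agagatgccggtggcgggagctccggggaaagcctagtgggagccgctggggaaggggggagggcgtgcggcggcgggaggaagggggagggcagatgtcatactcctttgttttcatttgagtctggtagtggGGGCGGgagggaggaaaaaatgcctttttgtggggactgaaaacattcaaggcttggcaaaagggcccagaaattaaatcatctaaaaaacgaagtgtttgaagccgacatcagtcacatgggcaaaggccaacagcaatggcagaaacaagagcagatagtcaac
HNRNPK, chr9:83980166-83980465, minus strand: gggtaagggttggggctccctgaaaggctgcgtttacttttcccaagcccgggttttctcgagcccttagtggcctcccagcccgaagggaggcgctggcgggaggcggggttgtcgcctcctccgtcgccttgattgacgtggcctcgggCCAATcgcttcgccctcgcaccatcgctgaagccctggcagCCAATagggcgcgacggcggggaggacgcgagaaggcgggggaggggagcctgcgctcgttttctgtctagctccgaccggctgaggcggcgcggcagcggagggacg
The HNRNPH1 window held 33 CpG and neither motif, the PTBP2 window 11 CpG and 1 GC box, and the HNRNPK window 32 CpG and 2 CCAAT boxes. RefSeq windows were matched for 28 of the 35 members, 46 windows in all. GGGCGG was found in 58.7% of them, against 45% of all 35116 windows, and CCAAT in 50%, against 34.6%. CCGGAAG, the ETS core, was in 8.7% of the members' windows and 10.3% of all, and TATAAA, the TATA box, in 8.7% and 11.5%. These matches, searched on both strands, describe the letters only.

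The question asked of the arrays was whether the regulators' own transcripts, as a whole or in single exons, differed between amiloride and control cells. None of the 35 members passed the test at the gene level. All 35 could be tested, with 858 of their 950 probe sets kept (7 to 48 per gene). In these bulk cultures, a change in the share of cells with a transcript and a change in RNA per cell cannot be told apart. The 0 members called stand against 0.0117% of all genes (limma, Benjamini-Hochberg over 17026 genes), and the smallest adjusted p of a member was 0.138. With the replicate number as a block, limma called 4 of all genes and 0 members. The members' smallest adjusted p were then 0.0855 (PTBP2), 0.0875 (HNRNPH1), 0.108 (PTBP1), 0.11 (HNRNPK) and 0.114 (HNRNPH3). Without the block, at an unadjusted p under 0.05, 14 members were higher with amiloride, against a background of 13% of all genes, and 0 were lower, against 1.14%. All 3 amiloride arrays lay above all 3 control arrays in 16 members, against 16.6% of all genes, and below them in 0, against 3.49%. The members' median log2 fold change was 0.54, and 28 of 35 lay above the all-gene median. By mean level, 30 of the members, all 16 hnRNPs among them, lay in the brightest quartile. Among those 30 the arrays did not overlap in 14 (46.7%), against 28.2% of the genes of that quartile, 12 (40%) were higher at an unadjusted p under 0.05, against 24.9%, and the median log2 fold change was 0.55, against 0.47. The part of brightness in the members' counts was not tested.

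**Figure D1:**
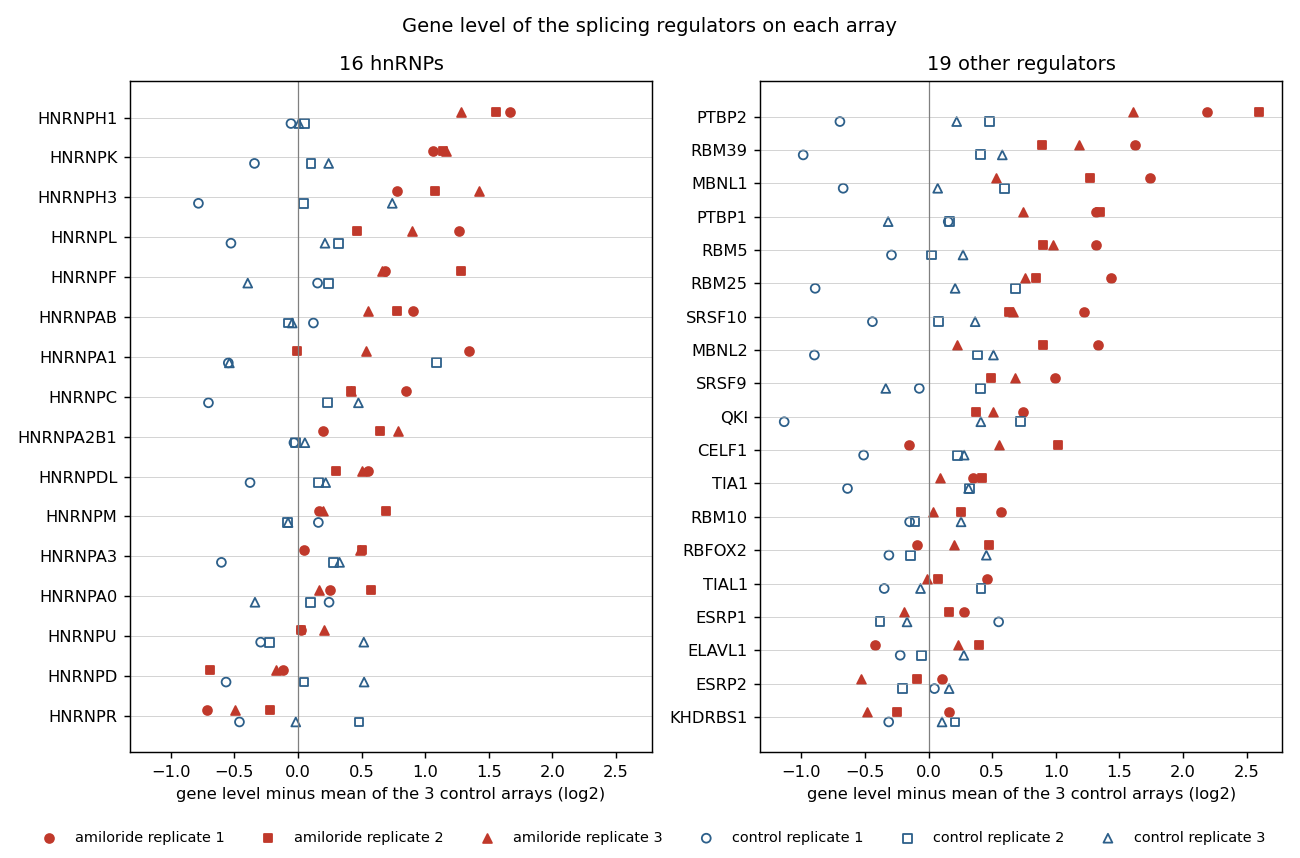
Gene level of each member on each array (log2), minus the mean of the 3 control arrays, for the 16 hnRNPs on the left and the 19 other regulators on the right; filled red symbols are amiloride arrays, open blue symbols control arrays, and the symbol's shape gives the replicate number. The amiloride symbols lie clear to the right of the control symbols for HNRNPH1, HNRNPK, PTBP2 and PTBP1, while control replicate 1 (open circles) is often the lowest control value, as in RBM39, MBNL1 and QKI.

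Among the hnRNPs that bind runs of G, HNRNPH1 and HNRNPH3 were more than 2-fold higher with amiloride and HNRNPF 1.83-fold higher, without passing the test. HNRNPH1, which can act as an enhancer or a silencer of splicing according to where it binds, had gene levels of 8.54, 8.43 and 8.16 with amiloride, against 6.82, 6.92 and 6.88 in controls. The groups were far apart and each was tight, with SDs of 0.20 in amiloride cells and 0.05 in control cells (n = 3 each). Its log2 fold change of 1.50 ± 0.22 (SE; 2.83-fold) ranked 192nd of the genes tested, with an adjusted p of 0.138 in limma, and 0.0875 with the replicate block. The value was 1.64 without control replicate 1, but 0.85 with the gene level taken as a mean and 0.83 with the stricter filter on dim probe sets. HNRNPH3, a shorter relative, had levels of 6.33, 6.63 and 6.98 with amiloride and 4.77, 5.60 and 6.30 in controls, so that its highest control array lay just under its lowest amiloride array. The log2 fold change was 1.09 ± 0.39 (SE; adjusted p = 0.268 in limma), and 0.72 without control replicate 1. HNRNPF had 6.42, 7.01 and 6.39 with amiloride, against 5.89, 5.98 and 5.34 in controls, a log2 fold change of 0.87 ± 0.28 (SE; adjusted p = 0.24 in limma). With the gene level as a mean it was 0.25, and without amiloride replicate 3 it was 0.45. Over the 15 probe sets of HNRNPF the median difference was only 0.10, with 10 higher and 5 lower on average. It was 0.80 over those of HNRNPH1 and 1.12 over those of HNRNPH3.

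HNRNPK, which binds runs of C through KH domains in RNA and DNA, also had a gap between the groups. Its levels were 8.91, 8.98 and 9.01 on the amiloride arrays, against 7.50, 7.95 and 8.08 on the control arrays. The amiloride arrays lay close together and well clear of the control arrays, and the log2 fold change was 1.12 ± 0.24 (SE; 2.18-fold; adjusted p = 0.172 in limma). HNRNPL, which binds CA repeats, had 8.20, 7.40 and 7.82 with amiloride and 6.40, 7.24 and 7.14 in controls. The groups were only just separated, with a log2 fold change of 0.88 ± 0.32 (SE; adjusted p = 0.275 in limma). HNRNPM, a binder of GU-rich sequence, had a log2 fold change of 0.35 ± 0.24, with amiloride arrays from 7.55 to 8.07 and control arrays from 7.30 to 7.54. The groups only just did not overlap, and the value was 0.10 without amiloride replicate 2.

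The hnRNP A/B proteins, which coat nascent transcripts and repress many exons, had log2 fold changes between 0.33 and 0.74. HNRNPAB had the smallest SE of them, with 8.27, 8.14 and 7.91 in amiloride cells and 7.49, 7.29 and 7.32 in control cells, a log2 fold change of 0.74 ± 0.22 (SE; adjusted p = 0.211 in limma). HNRNPA2B1, a protein followed by the study, had 6.12, 6.57 and 6.71 with amiloride, against 5.89, 5.91 and 5.98 in controls. The arrays did not overlap, but the log2 fold change of 0.54 ± 0.24 (SE; adjusted p = 0.361 in limma) was -0.05 with the stricter filter, which keeps only its brighter probe sets. HNRNPA1, the founding member and another protein the study followed, had 7.39, 6.05 and 6.59 with amiloride and 5.51, 7.14 and 5.51 in controls. Its arrays overlapped widely, and control replicate 2 alone lay with the amiloride arrays. Only 11 probe sets named HNRNPA1 alone, while 46 more were shared with its close copies, so its value is uncertain. With the shared probe sets included, the levels were 9.52, 9.04 and 9.39 with amiloride and 8.31, 9.35 and 9.44 in controls, and the log2 fold change was 0.28 ± 0.34 instead of 0.62 ± 0.51 (SE). HNRNPA3 (0.34 ± 0.31) and HNRNPA0 (0.33 ± 0.25) had log2 fold changes near 1 SE with overlapping arrays. Single arrays moved all 3 of these genes, HNRNPA1 between 0.26 (without amiloride replicate 1) and 1.16 (without control replicate 2, and then without overlap), HNRNPA3 to 0.08 without control replicate 1 and HNRNPA0 to 0.16 without control replicate 3.

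HNRNPC, which binds U tracts and packages nascent transcripts, had a log2 fold change of 0.56 ± 0.34, and 0.21 without control replicate 1, whose level of 6.19 lay well under the other control arrays (7.12 and 7.36) and the amiloride arrays (7.74, 7.30 and 7.31). HNRNPDL had 6.57, 6.32 and 6.52 with amiloride, against 5.64, 6.18 and 6.24 in controls, without overlap and with a log2 fold change of 0.45 ± 0.25 (SE; adjusted p = 0.47 in limma). Its relative HNRNPD (AUF1), a binder of AU-rich elements known for mRNA decay, had a log2 fold change of -0.33 ± 0.32, with 7.50, 6.93 and 7.44 in amiloride cells and 7.05, 7.66 and 8.14 in control cells. The sign of HNRNPD depended on the summary, since 17 of its 21 probe sets were higher on average with amiloride and the value was 0.20 with the gene level as a mean, 0.09 without amiloride replicate 2 and -0.61 without control replicate 1. HNRNPR, an RNA-binding relative of SYNCRIP, was the hnRNP furthest below zero, with 6.17, 6.67 and 6.39 with amiloride, against 6.42, 7.36 and 6.87 in controls. Its arrays overlapped (log2 fold change -0.48 ± 0.29; adjusted p = 0.525 in limma), and it stayed below zero in all 15 settings tried, from -0.89 to -0.23. Its amiloride arrays lay below the control arrays without overlap when no filter was used and with the gene level as a mean. The same held without amiloride replicate 2 and without control replicate 1. Of its 17 probe sets, 16 were lower on average with amiloride and 7 lower on every amiloride array, against 3.76% of all kept probe sets. HNRNPU, a scaffold attachment factor that binds RNA and chromatin, differed by 0.08 ± 0.27, and by -0.06 to 0.34 with 1 array left out.

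The largest difference of any member was that of PTBP2, the neural polypyrimidine tract-binding protein, and its relative PTBP1 was higher as well. In most tissues PTBP1 represses an exon of the PTBP2 transcript, whose skipping leads to decay. PTBP2 had gene levels of 6.35, 6.76 and 5.77 with amiloride, against 3.47, 4.64 and 4.39 in controls. Every amiloride array lay well above every control array, with SDs of 0.50 in amiloride cells and 0.62 in control cells (n = 3 each). The log2 fold change of 2.13 ± 0.38 (SE; 4.38-fold) ranked 19th of 17026, with an adjusted p of 0.157 in limma, and 0.0855 with the replicate block. It was 1.81 without control replicate 1 and 1.45 with 16 added to every intensity. Relative to the median gene of the same array, PTBP2 lay at only -0.82, 0.26 and -0.06 on the control arrays. The part of this low control level in the size of the fold was not tested. PTBP1, the widely expressed member, had 8.21, 8.24 and 7.64 with amiloride, against 7.04, 7.05 and 6.57 in controls. Its same-numbered arrays differed by 1.16, 1.19 and 1.06, and the log2 fold change was 1.14 ± 0.27 (SE; 2.20-fold; adjusted p = 0.177 in limma). Both PTB genes were thus above control on each amiloride array.

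The RBM proteins were split, with RBM5, RBM25 and RBM39 about 2-fold higher and RBM10 close to control. RBM5, which acts at the 3′ splice site and is known for exons of apoptosis genes, had levels of 5.82, 5.40 and 5.48 with amiloride, against 4.21, 4.52 and 4.77 in controls, a log2 fold change of 1.07 ± 0.25 (SE; adjusted p = 0.177 in limma). RBM39, a relative of the splicing factor U2AF, had 7.79, 7.05 and 7.35 with amiloride, against 5.18, 6.57 and 6.74 in controls. Control replicate 1 lay far below the other arrays, and the log2 fold change of 1.23 ± 0.42 (SE; adjusted p = 0.257 in limma) was 0.75 without it. RBM25, known for its part in the choice of BCL2L1 splice sites, had 6.39, 5.80 and 5.71 with amiloride, against 4.06, 5.64 and 5.17 in controls, a log2 fold change of 1.01 ± 0.41 (SE; adjusted p = 0.321 in limma), and 0.58 without control replicate 1. RBM10, a relative of RBM5, differed by 0.29 ± 0.25, with overlapping arrays.

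The muscleblind proteins MBNL1 and MBNL2 include or skip an exon according to where they bind beside it. MBNL1 had 7.24, 6.76 and 6.02 with amiloride, against 4.82, 6.10 and 5.57 in controls. Its lowest amiloride array lay under control replicate 2, and the log2 fold change was 1.18 ± 0.41 (SE; adjusted p = 0.258 in limma). MBNL2, a transcript followed by the study, had 6.76, 6.34 and 5.66 with amiloride, against 4.54, 5.82 and 5.94 in controls. Its groups overlapped, with a log2 fold change of 0.82 ± 0.43 (SE; adjusted p = 0.445 in limma), and 0.38 without control replicate 1. CELF1, which opposes the muscleblind proteins on many exons, differed by 0.47 ± 0.36, and by 0.80 with no overlap without amiloride replicate 1 but 0.20 without amiloride replicate 2. QKI, a STAR-domain protein that also promotes circular RNAs, had 5.92, 5.55 and 5.69 with amiloride, against 4.05, 5.90 and 5.59 in controls. Its difference of 0.54 ± 0.45 was -0.03 without control replicate 1 and 0.94 without control replicate 3. RBFOX2 differed by 0.20 ± 0.28, and by 0.04 to 0.42 with 1 array left out.

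The remaining regulators had log2 fold changes between -0.19 and 0.84. SRSF10, an SR protein that represses splicing when dephosphorylated, had 6.30, 5.71 and 5.74 with amiloride, against 4.64, 5.15 and 5.44 in controls, without overlap (0.84 ± 0.29, SE; adjusted p = 0.262 in limma). SRSF9 had 8.27, 7.76 and 7.95 with amiloride, against 7.20, 7.68 and 6.93 in controls, also without overlap (0.72 ± 0.27, SE; adjusted p = 0.292 in limma). TIA1 (0.29 ± 0.31) and TIAL1 (0.17 ± 0.27), which bind U-rich sequence downstream of weak 5′ splice sites, and ELAVL1 (0.07 ± 0.29), a stabilizer of AU-rich mRNAs, had overlapping arrays. TIAL1 depended on the filter, with 0.88 and no overlap when all its probe sets were used. With 1 array left out, TIA1 ran between -0.03 and 0.45, TIAL1 between 0.03 and 0.38 and ELAVL1 between -0.10 and 0.31. The epithelial regulators ESRP1 and ESRP2 differed by 0.08 ± 0.30 and -0.17 ± 0.25. ESRP1 was the dimmest member, with levels of 3.66, 3.55 and 3.19 on the amiloride arrays and 3.94, 3.00 and 3.22 on the control arrays, the only member in the lowest quartile of all genes. KHDRBS1, a STAR-domain protein that couples signalling to splicing, was followed by the study as a protein. Its gene level was 7.03, 6.62 and 6.38 with amiloride, against 6.55, 7.08 and 6.97 in controls, with overlap and a log2 fold change of -0.19 ± 0.27 (SE; adjusted p = 0.828 in limma).

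The hnRNPs were next set against the other regulators. The median log2 fold change was 0.55 for the hnRNPs and 0.54 for the other regulators, and the amiloride arrays lay above the control arrays without overlap in 9 of 16 hnRNPs and in 7 of 19 other regulators, against 16.6% of all genes and 28.2% of the brightest quartile. The median hnRNP level minus the median level of the other regulators was 1.30, 1.36 and 1.66 on the amiloride arrays and 1.66, 1.38 and 1.42 on the control arrays. It averaged 1.44 ± 0.19 with amiloride and 1.49 ± 0.15 in controls (SD, n = 3 each), a difference of -0.05. Its sign and size varied with the processing, with -0.19 without the filter, -0.15 with the stricter filter, -0.13 with the gene level as a mean, 0.09 with 16 added to every intensity and -0.11 to 0.06 with 1 array left out. Relative to the median gene of the same array, the hnRNPs averaged 2.86 ± 0.08 with amiloride and 2.51 ± 0.29 in controls, and the other regulators 1.42 ± 0.19 with amiloride and 1.02 ± 0.44 in controls.

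**Figure D2:**
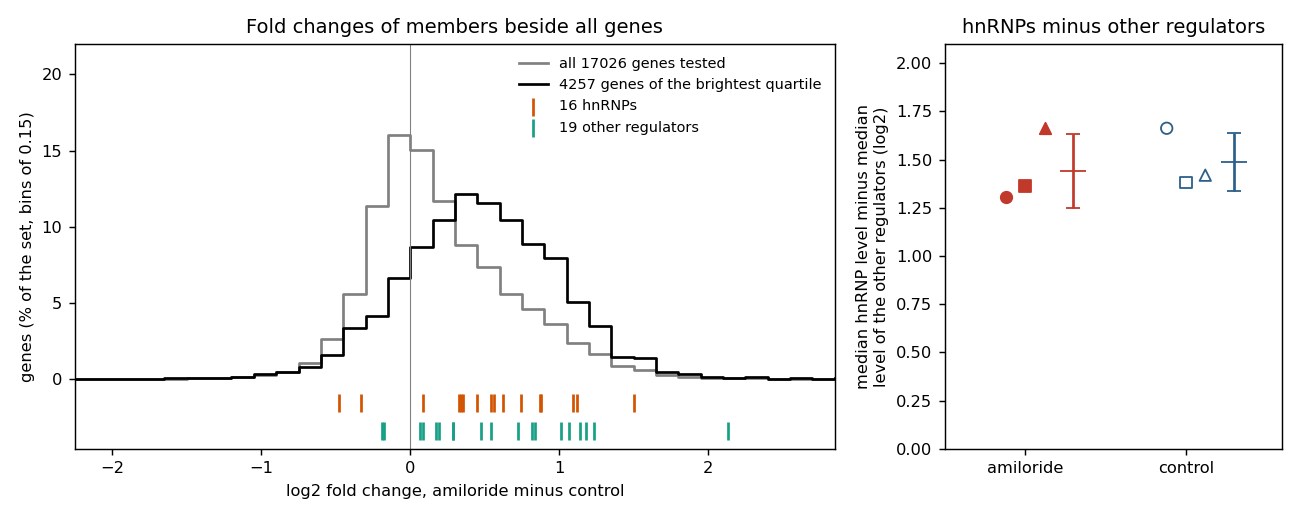
Left, share of genes (%) by log2 fold change (amiloride minus control) for all 17026 genes tested (grey) and for the 4257 genes of the brightest quartile (black), with a tick for each hnRNP (orange) and each other regulator (green) below; right, median hnRNP level minus median level of the other regulators (log2) on each array, with mean and SD (n = 3) beside the points. The members' fold changes lie in the range of those of the bright genes, with PTBP2 at 2.13 outermost, and the class difference of the groups overlaps. PTBP2 itself is not in the brightest quartile but in the one below it.

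Control replicate 1 touched many of these values, and without it 23 of 35 members lay above the all-gene median in place of 28. The members' median was then 0.36, against 0.11 for all genes. The number of members without overlap and higher was again 16, with HNRNPA0 in place of HNRNPH3. The share of all genes without overlap and higher was then 22.1%. HNRNPD (-0.61) and HNRNPR (-0.89) were then lower without overlap, and the share of all genes lower in that setting is not given here. As deposited, with no scaling between arrays, 4 members did not overlap (HNRNPH1, HNRNPK, PTBP2 and RBM25), against 6.68% of all genes.

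Splicing regulators outside the 35 were read for comparison. All 12 SR proteins lay above the all-gene median, with a median log2 fold change of 0.57 and 0 past the adjusted threshold. At an unadjusted p under 0.05, 4 of the 12 were higher, against 13% of all genes and 24.9% of the brightest quartile, and 0 were lower. Of 13 tested hnRNP relatives, 10 lay above the all-gene median (median 0.22), and of 35 tested further regulators 18 did (median 0.15), with 0 called in either list. The highest of all these genes were TARDBP (1.35 ± 0.37), EWSR1 (1.30 ± 0.29) and NOVA1 (1.29 ± 0.26). The lowest were KHDRBS2 (-0.58 ± 0.33), ELAVL4 (-0.56 ± 0.28) and NOVA2 (-0.38 ± 0.44), all without passing the test (log2 fold change ± SE). Many of the further regulators, KHDRBS2, ELAVL4, NOVA1 and NOVA2 among them, lay below the brightest quartile. The median of that list was not set against genes of like brightness.

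Each probe set of the members was also compared between the groups. Of the 858 kept, 240 (28%) lay higher on every amiloride array, against 12.2% of all 269458 kept probe sets and 18.1% of those in the brightest quartile of genes, and 23 (2.68%) lay lower on every one, against 3.76%. Along HNRNPK all 33 probe sets were higher on average with amiloride, by 0.21 to 2.02, and 19 of them on every array. All 17 of PTBP2 were higher, by 0.13 to 2.88, and 15 on every array. In HNRNPH1, 27 of 30 were higher on average and 14 on every array, and the median difference over all 30 was 0.80, against 1.50 for the gene level. PTBP1 had 25 of 29 higher, and its 15 dimmer probe sets differed by a median of 0.76, against 1.14 for the 14 brighter. RBM39 had 36 of 38 higher, by up to 3.16. Of the 48 probe sets of SRSF10, 42 were higher, and all 21 of MBNL1 were.

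**Figure D3:**
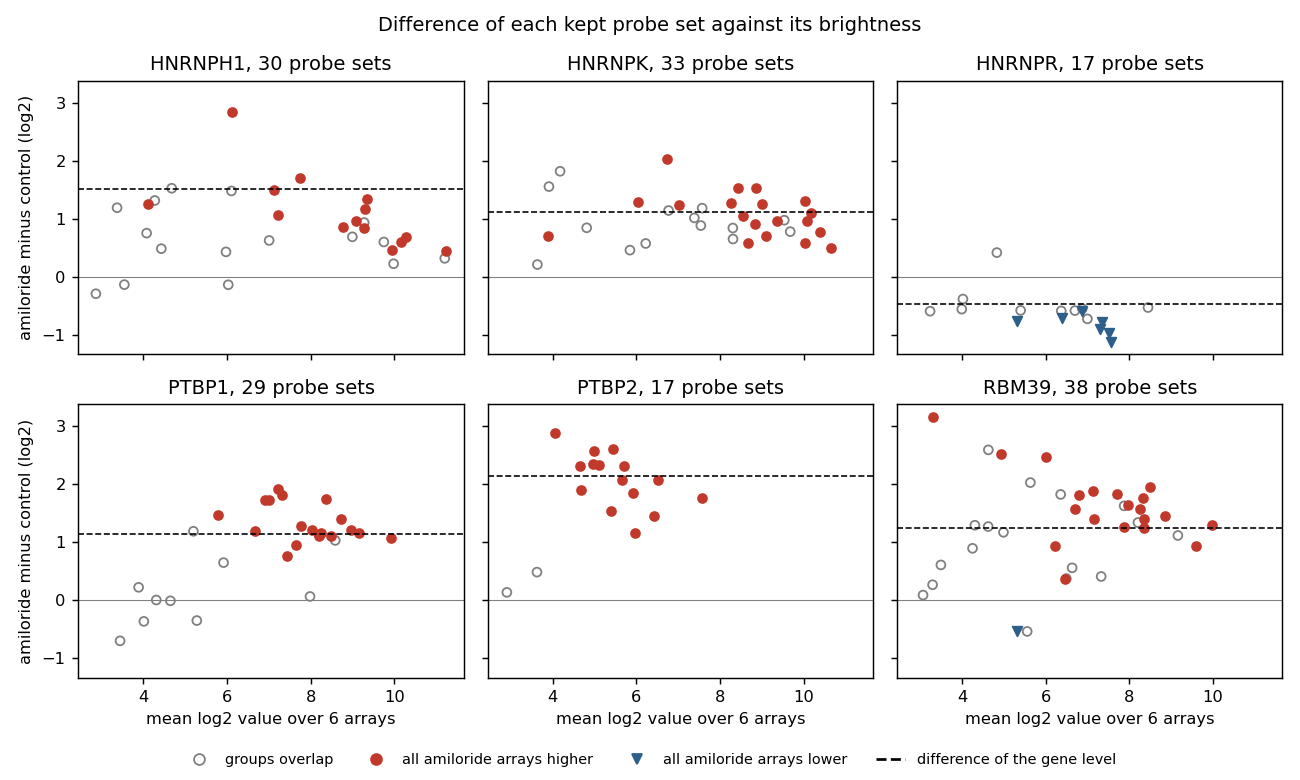
Mean amiloride minus control difference (log2) of each kept probe set of 6 members against its mean log2 value over the 6 arrays; filled red circles lay higher on every amiloride array, blue triangles lower on every one, open circles overlapped, and the dashed line is the difference of the gene level. The probe sets of HNRNPK and PTBP2 all lie above 0, those of HNRNPR nearly all below, and the dimmest ones of PTBP1 lie at or below 0 while the gene level is above it.

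The splicing index asks whether 1 stretch of a transcript differed from the rest, and was taken as the probe set's log2 value less the gene's level, array by array. No splicing index passed the limma test, in the members or elsewhere. Among 269458 tested, 0 (0%) had an adjusted p under 0.05 in limma, with 5205 higher and 7065 lower at an unadjusted p under 0.05, and the alternative test diffSplice called 47, none of them in a member. At an unadjusted p under 0.05, 25 of the members' 858 splicing indices (2.91%) were higher with amiloride, against 1.93% of all, and 52 (6.06%) were lower, against 2.62%. Of the 52 lower ones, 10 lay in HNRNPH1 and 7 in PTBP1, both with a gene level above control on every amiloride array. In the brightest quartile of genes, 6.21% of the members' indices and 2.88% of all indices were lower. The 10 members' probe sets with the smallest p all had an adjusted p of 0.948.

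In 5 of those 10, the values of the probe set itself overlapped between the groups. The PTBP2 probe set 2348076, the dimmest of 17, read 3.06, 3.26 and 2.60 with amiloride, against 2.56, 2.89 and 3.07 in controls, while its splicing index differed by -2.00 ± 0.32. The HNRNPH1 probe set 2890183, 28th of 30 by brightness, read 3.36, 3.56 and 3.52 with amiloride and 3.57, 3.80 and 3.48 in controls, with a splicing index difference of -1.64 ± 0.28. In both, the gene level was higher on every amiloride array while the probe set was not. HNRNPF 3286299, 14th of 15, read 3.24, 4.04 and 3.15 with amiloride and 4.38, 3.82 and 3.71 in controls (index -1.37 ± 0.30). PTBP1 3815185, 23rd of 29, read 5.46, 5.30 and 4.55 with amiloride and 5.29, 5.42 and 5.66 in controls (index -1.49 ± 0.32). The part of dim signal in these indices was not tested.

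Others had a probe set that itself lay lower or higher. RBM25 3543437 read 3.20, 4.03 and 4.12 with amiloride, against 5.28, 7.14 and 5.05 in controls, below control on every array while the gene level was above it. Its splicing index was -3.19, -1.76 and -1.59 with amiloride, against 1.22, 1.50 and -0.12 in controls, a difference of -3.05 ± 0.58 and the largest of any member. In RBM39, probe sets 3904263 and 3904269, whose numbers lie close together, had index differences of -1.76 ± 0.37 and -1.77 ± 0.32. The values of 3904269 overlapped, with 5.37, 5.31 and 5.20 in amiloride cells and 4.96, 5.90 and 6.64 in control cells. Probe set 3904263 of RBM39 read 5.09, 4.95 and 5.13 with amiloride and 5.25, 5.61 and 5.90 in controls, lower on every array. SRSF10 had probe sets in opposite directions. Probe set 4045794 read 6.24, 5.54 and 5.95 with amiloride, against 3.21, 3.87 and 4.20 in controls (index 1.31 ± 0.27), whereas 4045802 read 5.14, 5.29 and 5.18 with amiloride, against 5.34, 5.67 and 6.64 in controls (index -1.52 ± 0.34). KHDRBS1 2328509 read 5.90, 4.35 and 4.71 with amiloride, against 3.37, 3.22 and 3.73 in controls, above every control array while the gene level overlapped, with an index difference of 1.73 ± 0.38.

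For 3 more genes the study followed, the probe set with the smallest p was read as well. HNRNPA2B1 3042427 read 5.68, 6.25 and 6.10 with amiloride, against 4.14, 3.93 and 4.63 in controls, with an index difference of 1.24 ± 0.29. MBNL2 3497640 read 6.54, 5.88 and 5.37 with amiloride, against 3.76, 4.24 and 4.40 in controls, with an index difference of 0.98 ± 0.32. HNRNPA1 3416504 read 6.67, 5.90 and 6.59 with amiloride, against 4.36, 5.83 and 5.51 in controls, higher on every amiloride array. Its index differed by 0.53 ± 0.43, with overlap. That index was 0 on replicate 3 of both groups, where this probe set was itself the gene's median. All 3 had an adjusted p of 0.948 in limma. The exon behind each probe set is not given, since coordinates and exon numbers were not used here. The MBNL2 probe set could therefore not be set against the splicing change that the study reported for MBNL2 by RT-PCR.

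**Figure D4:**
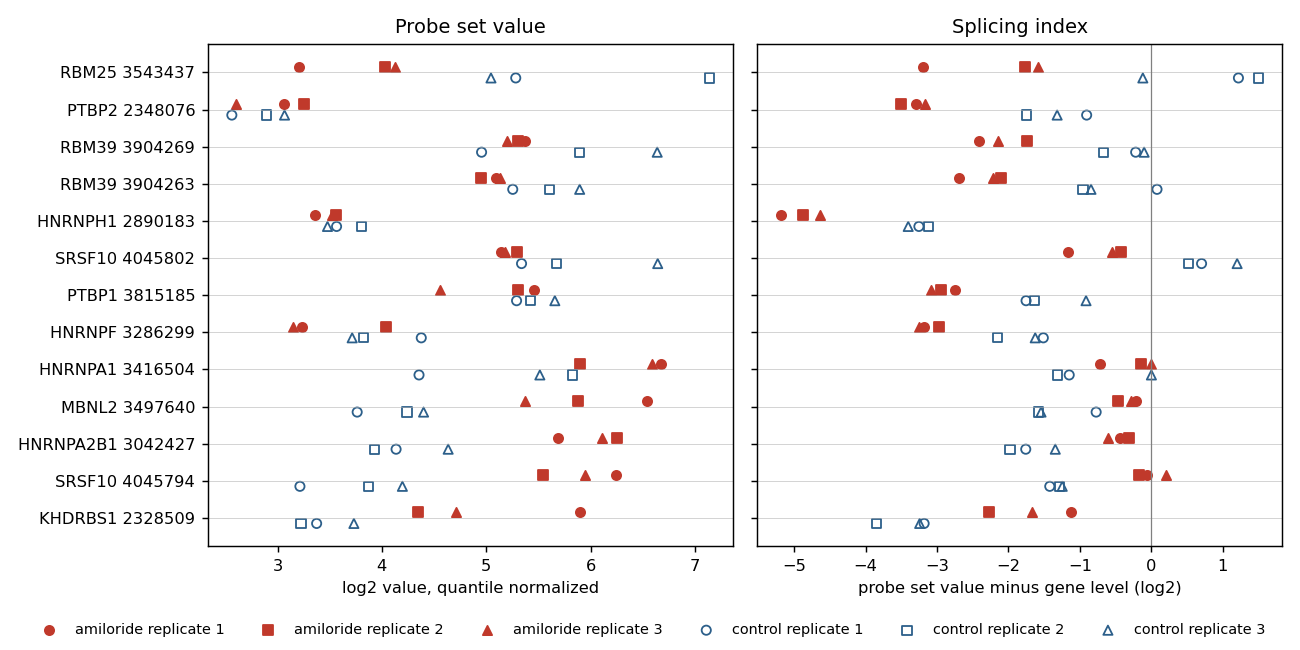
The 13 named probe sets of members on each array, as log2 value (left) and as splicing index, the value relative to its gene's level (right); filled red symbols are amiloride arrays, open blue symbols control arrays, and shapes give the replicate number. The values of PTBP2 2348076 and HNRNPH1 2890183 overlap while their indices do not, whereas RBM25 3543437 is lower and SRSF10 4045794 higher on both scales.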

How the data were processed

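The authors ran dChip's model-based summary and deposited, for every probe set on every array, a linear intensity described as normalized, with build hg18 named in the submitters' processing notes. The 1408285 deposited intensities per array were set to at least 1, taken to log2 and quantile normalized, because the array medians differed. The table had 0 columns beyond those of the 6 arrays. Of the probe sets, 357582 carried 1 gene symbol, 15322 several and 1035381 none. For 7 members the array carried an older symbol. A probe set was kept if its log2 value averaged 2.789 or more over the 6 arrays (the median of all probe sets), and a gene if it had at least 3. Gene levels (medians) and splicing indices were fitted with lmFit and eBayes in limma 3.58.1 (R 4.3.3, with the data.table package in version 1.17.8), two-sided, with Benjamini-Hochberg adjustment over all features and a threshold of 0.05. The fits were tested on simulated data. With 3 arrays per group and no pairing, an exact permutation test has a smallest p of 0.1. With pairing the smallest p is larger, and no such test was run. Precision is limited by the 3 arrays per group, and the p-values measure the spread between these arrays.

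After removal of the group means, same-numbered arrays correlated across genes at 0.184, 0.121 and 0.260, all over the 0.1 set for pairing. As deposited the same values were 0.184, 0.087 and 0.278, with 1 under 0.1, and arrays of different numbers reached 0.107. The source of this pairing is not stated in the labels. A fit with the number as a block was therefore run beside the unblocked one. The SE, p and counts in the text are from the unblocked fit unless the block is named, so they do not use the pairing. All 35 members were named. Probe sets were named if they were among the 10 of the members with the smallest unadjusted p for the splicing index, or had the smallest p in HNRNPA1, HNRNPA2B1, KHDRBS1 or MBNL2, which the study followed. In the other lists the 3 highest and 3 lowest genes were named. The members and lists were chosen with earlier results of these data known. Promoter sequences are RefSeq's for GRCh38.p14. Alternatives were no scaling between arrays, median centring, no filter and a stricter one (3.973), 16 added to every intensity, the mean as gene level, the replicate block, eBayes with a trend, diffSplice and leaving out each array.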

Additional observations from a re-analysis of the deposited data

How the results depend on the processing

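In 490 refits of the members' log2 fold changes under the alternatives, 0 passed the threshold and 19 had the other sign. The 19 were 5 of ESRP1, 4 each of HNRNPU and ELAVL1, 2 of HNRNPD and 1 each of HNRNPA2B1, QKI, ESRP2 and TIA1. The replicate block and the eBayes trend leave the log2 fold change unchanged, so those refits could not show another sign. Of 140 refits of the named splicing indices, 0 passed and 0 changed sign. The replicate block leaves an index difference unchanged, so its sign could not change there. PTBP2 2348076, HNRNPH1 2890183 and HNRNPF 3286299 were too dim for the stricter filter and have no refit with it. Most of these probe sets were also named for their small p. The count of members higher at an unadjusted p under 0.05 (14) was 2 as deposited and 9 to 14 with 1 array left out, lowest without amiloride replicate 1. Members without overlap and higher (16) numbered 4 as deposited, against 16.6% of all genes in the main setting and 6.68% as deposited. Members lower at an unadjusted p under 0.05 (0) numbered 1 without the filter, 1 with the gene level as a mean, and 0 to 1 with 1 array left out. Of all genes, 13% were higher and 1.14% lower at that threshold in the main fit. The shares of all genes in the other settings are not given here, so the members' counts there stand without a background. Over all genes, 2 calls became 1 with the stricter filter, 1 with 16 added, 4 with the replicate block, which took up the pairing and called 0 members, 4 with eBayes on a trend, and 0 to 6 with 1 array left out (6 without control replicate 1). Splicing indices called (0) numbered 47 with diffSplice, 0 of them in members. The causes were not tested. ESRP1 had too few probe sets for the stricter filter. The array gives no depth, and 2.52% to 5.95% of an array's intensities lay at or below 1, so that dim probe sets carry little.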
